A study of Mus musculus with 10 samples.

Results

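The genes described here are the PARP genes Parp1, Parp2, Parp3, Parp8, Parp9, Parp10, Parp12 and Parp14 together with Dtx3l, taken by gene symbol. Every probe set assigned to exactly 1 of these 9 symbols was used. That gave 15 probe sets of 8 genes, out of 34945 single-symbol probe sets of 18193 genes on the array. Parp10 is read by a probe set that it shares with Plec, so it has no value of its own here.

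RNA of 10 tumors grown from B16, a mouse melanoma line that can be transplanted, was hybridised to Affymetrix arrays. All tumors carry the strain label C57BL/6. Of these, 5 tumors were of wild-type genotype and 5 were labelled Bach2-deficient. The Bach2 protein represses transcription in lymphocytes. The labels give no age, sex or treatment, the deleted region of Bach2, or whether the host, the tumor cells or both lacked it. Whole tumors were dissociated before RNA extraction, so each value mixes melanoma cells with all other cells, and more cells of a type cannot be told apart from more RNA per cell.

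PARP proteins use NAD to attach ADP-ribose to other molecules. Parp1, Parp2 and Parp3 are switched on by DNA breaks, and Parp1 and Parp2 build the poly-ADP-ribose chains that gather repair factors. Parp9, Parp10, Parp12, Parp14 and Dtx3l belong to the genes induced by interferons. Parp9 acts in a complex with Dtx3l, a ubiquitin ligase, while Parp10, Parp12 and Parp14 attach single ADP-ribose units.

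Of the 8 measured genes, 6 rose in the Bach2-deficient tumors and 0 fell (0 also at an unadjusted p under 0.05). The words rose and fell are kept for a limma adjusted p (Benjamini-Hochberg over the 18193 genes) under 0.05. Over all genes 16.3% rose and 12.4% fell, 28.7% in all. All 4 measured interferon-responsive genes were among the 6, with Parp14 at 8.72-fold, Parp9 at 3.74-fold, Dtx3l at 3.40-fold and Parp12 at 1.94-fold. Parp8 and the break sensor Parp3 rose as well, by 3.08-fold and 1.88-fold. Parp1 and Parp2 did not pass. The median change of the 8 genes was 1.29 on the log2 scale, beside -0.06 over all genes. In the 6 genes that rose, the 5 Bach2-deficient tumors all read above the 5 wild-type tumors, a separation upward that 11.2% of all genes showed; 7.67% were separate downward and 18.9% either way.

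**Figure D1:**
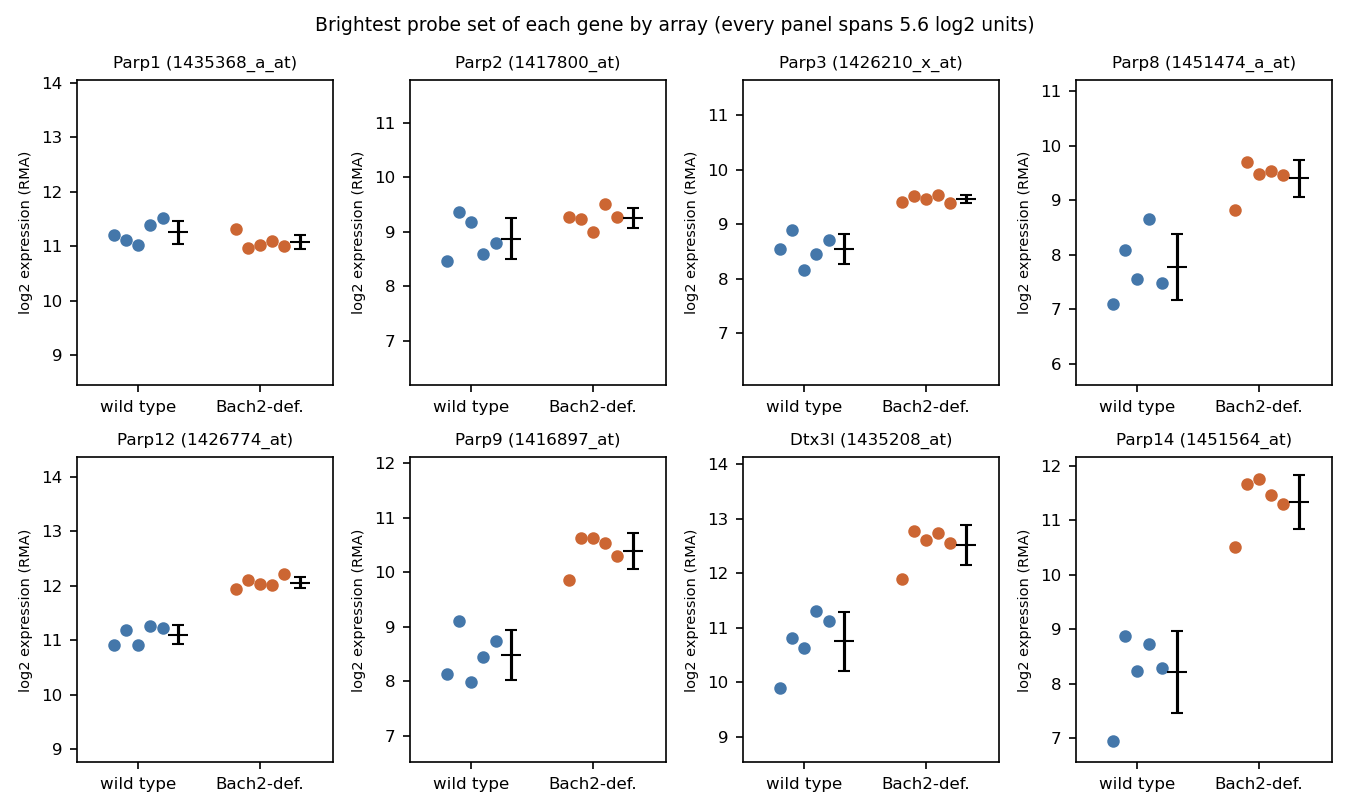
Log2 expression (RMA) of the brightest probe set of each gene on every array, wild type in blue and Bach2-deficient in orange, in order of replicate number, with the mean and SD (n = 5) as a black bar; every panel spans the same number of log2 units. The groups overlap for Parp1 and Parp2 and are separate for the other 6 genes, with the widest gap in means for Parp14 (8.21 against 11.33).

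Facts of the arrays that moved with genotype bear on every value below. Bach2 itself changed by -1.07 (SE 0.38, limma adjusted p = 0.0551) with overlapping groups. Xist, a transcript of the inactive X chromosome, read 11.36 to 12.23 in wild type, and in the Bach2-deficient group it was high on replicate 2 (11.86) and between 4.76 and 6.61 on the rest. Eif2s3y, a gene of the Y chromosome, read 5.07 to 7.68 in wild type, 4.50 on Bach2-deficient replicate 2 and 10.52 to 10.93 on the rest. Both split the arrays by genotype except for that replicate, so a part of sex cannot be told apart from genotype. The poly-A spike controls, added to the RNA before labelling, read 12.13 ± 0.18 in wild type and 10.03 ± 0.11 in the Bach2-deficient group (log2, SD, n = 5 each); their part in the results was not tested. Of 7 T cell markers measured, 7 rose, and their per-array mean ran from 6.82 to 8.62 in wild type and from 10.08 to 11.27 in the Bach2-deficient group. Of 7 macrophage markers, 6 rose (means 8.10 to 9.30 against 9.87 to 10.88). Of 10 melanocyte markers, 3 fell (6 lower at an unadjusted p under 0.05), namely Tyr, Dct and Oca2, with a median change of -0.31 (means 11.85 to 12.17 against 11.30 to 12.02). All 3 red cell markers measured fell, with a median change of -4.16 (means 8.51 to 11.68 against 4.48 to 6.63). Of 6 fibroblast markers, 2 collagen genes fell, Col1a2 by 1.80 on the log2 scale and Col1a1 by 1.10. Of 3 B cell markers measured, 0 rose and 0 fell (0 at an unadjusted p under 0.05). Their per-array mean spread more widely in the Bach2-deficient group (4.94 to 9.17) than in wild type (6.12 to 7.42). The part of cell content in the PARP changes was not tested.

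Parp14, a large macro-domain protein that attaches single ADP-ribose units and acts as a co-activator of STAT6, had the largest change among the 8 genes. Its probe set 1451564_at read 6.95, 8.87, 8.23, 8.72 and 8.28 (log2) in wild-type replicates 1 to 5, and 10.50, 11.65, 11.76, 11.46 and 11.29 in the Bach2-deficient ones. The lowest Bach2-deficient tumor, replicate 1, was thus still well above the highest wild-type tumor, and wild-type replicate 1 lay below the rest of its group. The change was 3.12 (SE 0.36, 95% interval 2.32 to 3.93, limma adjusted p = 0.000376). A second probe set, 1432548_at, gave a different picture. It read 6.90, 7.58, 7.61, 5.95 and 8.87 in wild type and 7.68, 8.53, 8.32, 8.44 and 8.15 in the Bach2-deficient tumors. The groups overlapped because wild-type replicate 5 exceeded every Bach2-deficient tumor, and the change of 0.84 (SE 0.45) did not pass (limma adjusted p = 0.192 over all single-symbol probe sets). It passed when wild-type replicate 5 was left out, at 1.21 (limma adjusted p = 0.0297). The mean of both probe sets changed by 1.98 and passed. The wild-type spread of 1432548_at, an SD of 1.07 against 0.76 for 1451564_at, was the widest of the 15 probe sets.

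Parp9 carries macro domains that bind ADP-ribose and works as the partner of Dtx3l. Its single probe set read 8.14, 9.11, 7.995, 8.44 and 8.75 in wild type and 9.86, 10.62, 10.63, 10.54 and 10.30 in the Bach2-deficient tumors. The groups were separate, with Bach2-deficient replicate 1 again the lowest of its group. The change was 1.90 (SE 0.23, 95% interval 1.40 to 2.41, limma adjusted p = 0.000450).

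Dtx3l was read by a pair of probe sets, and both rose. The brighter one, 1435208_at, read 9.89, 10.82, 10.63, 11.30 and 11.12 in wild type and 11.89, 12.77, 12.62, 12.75 and 12.55 in the Bach2-deficient tumors. Replicate 1 was the lowest array in both groups, and the groups did not overlap. The change was 1.76 (SE 0.27, 95% interval 1.17 to 2.36, limma adjusted p = 0.00125), and that of 1439825_at was 1.11 (SE 0.18). In the table of RefSeq genes Parp14, Dtx3l and Parp9 are consecutive protein-coding genes on chromosome 16, and the annotated spans of Dtx3l and Parp9 overlap at their ends. Their changes of 3.12, 1.76 and 1.90 come from different probe sets, so their order by size is not exact.

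Parp12, a zinc-finger PARP that binds RNA, was bright in every tumor and varied little within a group. It read 10.91, 11.19, 10.91, 11.27 and 11.22 in wild type and 11.94, 12.10, 12.03, 12.02 and 12.21 in the Bach2-deficient tumors. The groups were separate by more than the range within either of them. The change was 0.96 (SE 0.10, 95% interval 0.73 to 1.19), and its limma adjusted p of 0.000314 was the smallest of the 8 genes although its fold was among the smallest of the 6 that rose.

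Parp8, a less studied enzyme of the mono-ADP-ribosylating kind, is not listed above with the interferon-induced members. It read 7.10, 8.08, 7.55, 8.66 and 7.49 in wild type and 8.82, 9.71, 9.48, 9.53 and 9.46 in the Bach2-deficient tumors. The gap between the groups was narrow, from wild-type replicate 4 to Bach2-deficient replicate 1. The change was 1.62 (SE 0.28, 95% interval 1.00 to 2.25, limma adjusted p = 0.00231).

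Parp3, which responds to double-strand breaks, rose on each of its 3 probe sets, although the call of the dimmest one was not stable. The brightest, 1426210_x_at, read 8.54, 8.896, 8.16, 8.46 and 8.70 in wild type and 9.41, 9.51, 9.46, 9.53 and 9.38 in the Bach2-deficient tumors. The Bach2-deficient values lay close together and above all wild-type values. The change was 0.91 (SE 0.13, 95% interval 0.62 to 1.20, limma adjusted p = 0.000969). Probe set 1451969_s_at changed by 1.25 (SE 0.16, limma adjusted p = 0.000700 over all single-symbol probe sets), and the dimmer 1445888_x_at by 0.49 (SE 0.15, limma adjusted p = 0.0361), with overlapping groups. The call of 1445888_x_at was lost in 10 of 18 alternatives, among them those without wild-type replicate 3, 4 or 5 or Bach2-deficient replicate 2, 4 or 5 (limma adjusted p up to 0.0915 with 1 array left out and up to 0.530 over all). The endings _x_at and _s_at mark probe sets with probes that can match other transcripts, so a share of signal from elsewhere cannot be told apart for Parp3.

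Parp1 and Parp2, the repair polymerases, showed no change past the threshold. The brightest Parp1 probe set, 1435368_a_at, read 11.21, 11.11, 11.03, 11.40 and 11.53 in wild type and 11.31, 10.98, 11.02, 11.10 and 11.00 in the Bach2-deficient tumors. The groups overlapped across most of their range. Its change was -0.17 (SE 0.12, 95% interval -0.44 to 0.09, limma adjusted p = 0.292). The other 3 Parp1 probe sets changed by 0.10, -0.06 and 0.13, and each interval contained 0. Parp2 read 8.46, 9.36, 9.17, 8.58 and 8.78 in wild type and 9.27, 9.24, 8.99, 9.50 and 9.27 in the Bach2-deficient tumors. Its change of 0.38 (SE 0.18, 95% interval -0.02 to 0.78) had a limma adjusted p of 0.136. With wild-type replicate 2 left out, Parp2 reached 0.50 and passed (limma adjusted p = 0.0466). The intervals leave room for a rise of Parp2 of up to 0.78 on the log2 scale, and for Parp1 they exclude a rise as large as the lower bound of any gene that rose.

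**Figure D2:**
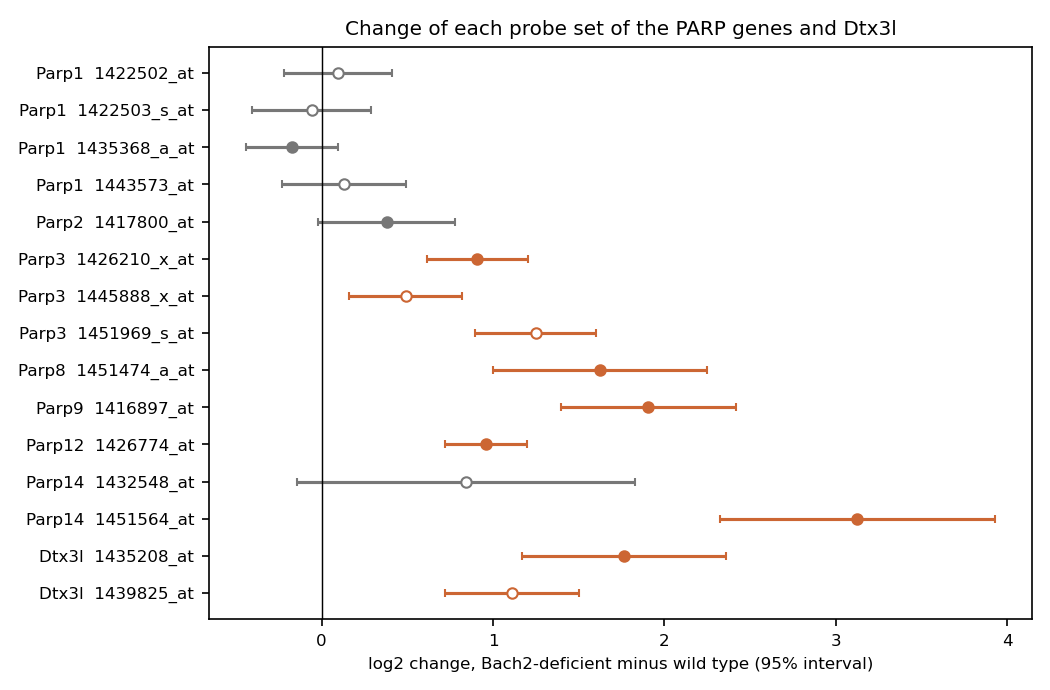
Log2 change (Bach2-deficient minus wild type) of all 15 probe sets with 95% intervals from the limma fit over single-symbol probe sets; orange marks those that rose, grey those that did not pass, and filled points the brightest probe set of a gene. All 5 probe sets of Parp1 and Parp2 have intervals that contain 0, and the Parp14 probe sets differ from each other more than those of any other gene.

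By probe set, 9 of 15 rose and 0 fell (0 at an unadjusted p under 0.05), where 14.1% of all single-symbol probe sets rose and 10.1% fell, 24.2% in all. The groups were separate for 8 of the 15, all upward, beside 9.81% of all upward, 6.88% downward and 16.7% either way. All 15 had means above 4.98, below which the dimmest 30% of genes lie.

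The contrast between the interferon-responsive genes and the repair polymerases was described by array and not tested, because it is a score over chosen genes. The mean log2 value of Parp9, Parp12, Parp14 and Dtx3l was 8.97, 9.996, 9.44, 9.93 and 9.84 in wild-type replicates 1 to 5 and 11.05, 11.79, 11.76, 11.69 and 11.59 in the Bach2-deficient ones. The mean of Parp1 and Parp2 ran from 9.84 to 10.24 in wild type and from 10.01 to 10.30 in the Bach2-deficient tumors. The first mean was higher by 1.94 in the Bach2-deficient group and the second by 0.10, so that their difference shifted by 1.83. That shift was 1.38 when each gene was taken as the mean of its probe sets. The level of the 4 genes against that of Parp1 and Parp2 within an array has no meaning here, since probe sets differ in affinity.

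**Figure D3:**
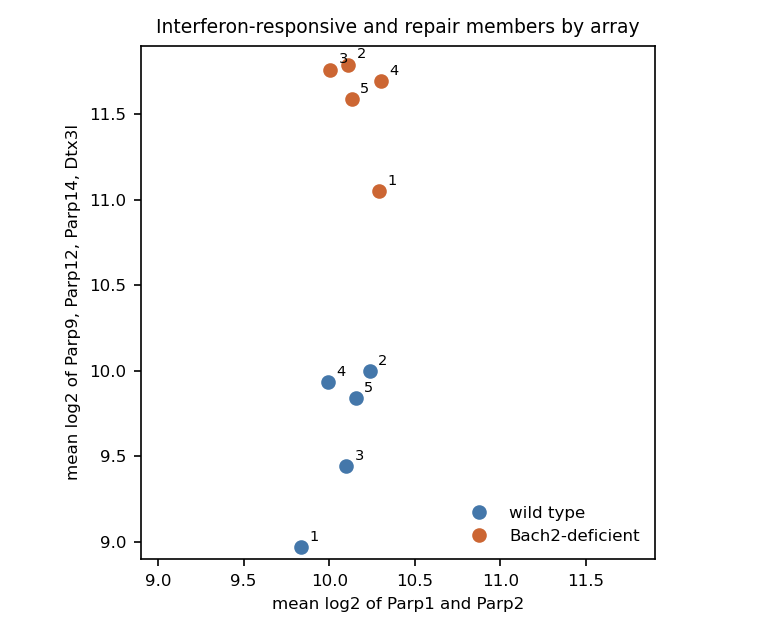
Mean log2 value of Parp9, Parp12, Parp14 and Dtx3l (vertical) against that of Parp1 and Parp2 (horizontal) on each array, on axes of the same length, with replicate numbers beside the points. The arrays separate along the vertical axis, 8.97 to 9.996 in wild type against 11.05 to 11.79 in the Bach2-deficient group, and overlap along the horizontal axis.

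Tumors of a group also differed among themselves. Bach2-deficient replicate 1 was the lowest of its group for 5 of the 6 genes that rose. On that array the T cell and macrophage marker means (10.08 and 9.87) were the lowest of the group too. So was the mean of the interferon signalling list described below (8.92), while the melanocyte marker and proliferation means (12.02 and 10.85) were the highest. In wild type, replicate 1 was lowest for 4 of the 6 genes and replicate 3 for 2. Replicate 1 also had the lowest T cell, macrophage and interferon signalling means of the wild-type group (6.82, 8.10 and 7.40). The correlation of deviations from the group means over the 10 arrays was 0.89 for Parp14 with Dtx3l, 0.73 for Parp14 with Parp9, 0.63 for Parp9 with Dtx3l and 0.81 for Parp3 with Parp9. It was -0.22 for Parp14 with Parp1. These are descriptions of 10 points that share arrays and their normalization. Among all genes, those whose deviations were most like Parp14 were Ms4a4c (r = 0.98), the class I gene H2-K1 (0.96) and the RNA sensor gene Ifih1 (0.96). For Parp9 they were Zfp429 (0.96), Sipa1l1 (0.95) and Rasgrp1, which encodes a Ras activator of T cells (0.95). For Parp1 they were Hmmr, Pdap1 and Bag3 (0.95 each). These are the highest values picked from all genes over 10 arrays, and such a choice alone gives a high r. Parp1, which did not pass, had matches about as high as Parp9.

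Bach2-deficient replicate 2, the array of its group with high Xist, read above all 5 wild-type arrays for all 6 genes that rose. All 5 wild-type arrays were high for Xist too. With Xist (high or low) as a term in the fit by gene, the genotype change is therefore replicate 2 against the wild-type mean. It was 3.45 for Parp14, 2.14 for Parp9, 2.02 for Dtx3l, 1.93 for Parp8, 1.00 for Parp12 and 0.96 for Parp3. Calls with that term, here and below, rest on this array and are not an adjusted comparison of 5 against 5 tumors. With the melanocyte marker mean as a covariate, itself lower in the Bach2-deficient group, Parp14 (2.66), Parp9 (1.59), Parp12 (0.98) and Parp3 (0.87) passed. Dtx3l (1.49, limma adjusted p = 0.0692) and Parp8 (1.38, limma adjusted p = 0.102) did not, and in the fit by probe set the brightest Parp3 probe set did not pass either (limma adjusted p = 0.0589).

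Genes around the PARP enzymes were read from lists of the same pathway. Their counts stand beside 16.3% of all 18193 genes that rose and 12.4% that fell. With the melanocyte covariate 425 of all genes rose and 174 fell. In the remaining PARP family, 3 of 8 genes rose and 0 fell (4 and 0 at an unadjusted p under 0.05), with a median change of 0.22. Parp4, the vault-associated PARP, rose by 1.10 (SE 0.23, limma adjusted p = 0.00635) and Parp11 by 0.93 (SE 0.10, limma adjusted p = 0.000334). The third was Zc3hav1, the zinc-finger antiviral protein, at 0.97, which is named after its value was seen. Parp6, Tiparp, Parp16, Tnks and Tnks2 ranged from -0.22 (Parp6) to 0.40 (Tiparp) and did not pass. With the melanocyte covariate 1 of the 8 rose, and Parp4 did not pass (0.70, limma adjusted p = 0.221), while 5 rose as means of probe sets.

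The promoter sequences of RefSeq (build GRCm38.p6), from 250 bases before to 50 after a start site, were searched on both strands for GAAA followed by any pair of bases and GAAA again, the core of the interferon-stimulated response element, and for TTCNNNGAA, the core of the STAT site. The table holds 6 of the 9 members (Parp1, Parp2, Parp3, Parp8, Parp12 and Dtx3l) and 7 of the 8 other family genes. The first motif was found in 0 of these 6 and in Parp4 and Parp11 of the 7, against 3.44% of all 32851 promoters of this length. The second was found in 0 of the 6, and in Parp11 and Parp16 (8.3% of all). Genes are counted by a match in any of their promoters, while these shares are by promoter. Parp11 has another promoter in the table, with 0 matches of either motif. A match is a description of letters, and the absence of one says nothing of sites elsewhere. The stretches below show the matches in capitals for Parp4 and Parp11. They overlap each other in Parp4. In Parp11 the match lies on the opposite strand, and the motif shares its last bases with the STAT core. For Parp11 the promoter with the match is shown. Zc3hav1, which rose as well, had 0 matches of either motif and is not shown. The bases just before the start of Parp12, which rose, and of Parp1, which did not pass, are shown beside them without a match.
Parp4, chr14:56575419-56575518, plus strand: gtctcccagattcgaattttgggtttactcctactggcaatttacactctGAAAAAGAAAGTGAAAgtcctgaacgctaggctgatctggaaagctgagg
Parp11, chr6:127446730-127446829, plus strand: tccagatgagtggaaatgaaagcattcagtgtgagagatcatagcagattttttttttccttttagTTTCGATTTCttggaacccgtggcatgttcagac
Parp12, chr6:39118350-39118449, minus strand: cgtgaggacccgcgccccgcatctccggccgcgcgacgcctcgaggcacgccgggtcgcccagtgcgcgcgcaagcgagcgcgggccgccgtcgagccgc
Parp1, chr1:180568791-180568890, plus strand: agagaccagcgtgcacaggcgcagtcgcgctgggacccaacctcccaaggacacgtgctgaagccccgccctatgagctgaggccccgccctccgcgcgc

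Interferon signalling genes rose alongside. Of 14 measured, 11 rose and 0 fell (11 and 0 at an unadjusted p under 0.05), with a median of 1.49. The ligand gene Ifng changed by 5.84 (SE 0.60, limma adjusted p = 0.000245) from a wild-type mean of 4.95, under 4.98, so its size is not exact. The receptor genes Ifngr1, Ifnar1 and Ifnar2, the kinase genes Jak1, Jak2 and Tyk2, the factor genes Stat2, Irf9 and Irf1 and the inhibitor gene Usp18 made up the rest. Among the genes of this list above 4.98 in wild type, the largest change was that of Irf1, an interferon-induced transcription factor, at 3.24 (SE 0.25, limma adjusted p = 8.84e-05). Ifnb1 (0.41), Ifngr2 (0.40) and the inhibitor gene Socs1 (0.37) did not pass. With the melanocyte covariate 6 of the 14 rose.

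The IL-4 and STAT6 list, the pathway in which Parp14 is known as a co-activator, held 5 measured genes, of which 5 rose, with a median of 1.49. Il13 had a wild-type mean of 3.89, under 4.98, so the size of its change, which is the median of the list, is not exact. Stat6 rose by 0.96 (SE 0.11, limma adjusted p = 0.000378) and Il13ra1, a receptor chain for IL-13, by 1.45 (SE 0.18). With the melanocyte covariate 2 of the 5 rose.

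Of 11 genes of NAD metabolism, which supplies the substrate of PARP enzymes, 8 rose and 0 fell (8 and 0 unadjusted), with a median of 0.66. Bst1, an enzyme that consumes NAD, rose by 2.79 (SE 0.32, limma adjusted p = 0.000385), and Nampt, the limiting enzyme of NAD salvage, by 0.66 (SE 0.11, limma adjusted p = 0.00231). With the melanocyte covariate 1 of the 11 rose, and Nampt did not pass (limma adjusted p = 0.100).

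Of 6 genes that remove ADP-ribose, 0 rose and 1 fell (0 and 2 unadjusted), beside 16.3% and 12.4% of all genes, with a median of -0.13. The fall was Macrod2, an ADP-ribose hydrolase, by 1.10 on the log2 scale (SE 0.23, limma adjusted p = 0.00633); averaged over its 4 probe sets it did not pass (-0.49, limma adjusted p = 0.0718), nor with the melanocyte covariate (-0.53, limma adjusted p = 0.243). Without wild-type replicate 3 or without Bach2-deficient replicate 1, 2 of the 6 fell, as with repeated quantile normalization and with array weights. Of 9 genes of single-strand break repair, which Parp1 and Parp2 serve, 1 rose and 0 fell (1 and 2 unadjusted), beside the same shares, with a median of 0.01. That was the ligase gene Lig3 (0.47, SE 0.16, limma adjusted p = 0.0466), whose call was lost in 15 of 19 alternatives; with 1 array left out it held only without wild-type replicate 4 or Bach2-deficient replicate 1. The number of the 9 that fell was 2 without Bach2-deficient replicate 1, 1 without wild-type replicate 4, and 2 with repeated quantile normalization and with array weights. Of the 4 other Deltex genes, relatives of Dtx3l, 0 rose and 0 fell (0 unadjusted), with a median of 0.18; as means of probe sets 2 rose, and 1 with the replicate block.

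Of 9 proliferation genes, 0 rose and 1 fell (0 and 1 unadjusted), beside 16.3% and 12.4% of all genes, with a median of -0.21. Mki67, a marker of cycling cells, changed by -0.69 (SE 0.19, limma adjusted p = 0.0192). It did not pass without Bach2-deficient replicate 2 (-0.61, limma adjusted p = 0.0530) or with the melanocyte covariate (-0.45, limma adjusted p = 0.344). With the Xist term the change of Mki67 was -0.998, a size that rests on Bach2-deficient replicate 2 alone and is not read as a call. Without Bach2-deficient replicate 1, 5 of the 9 fell.

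**Figure D4:**
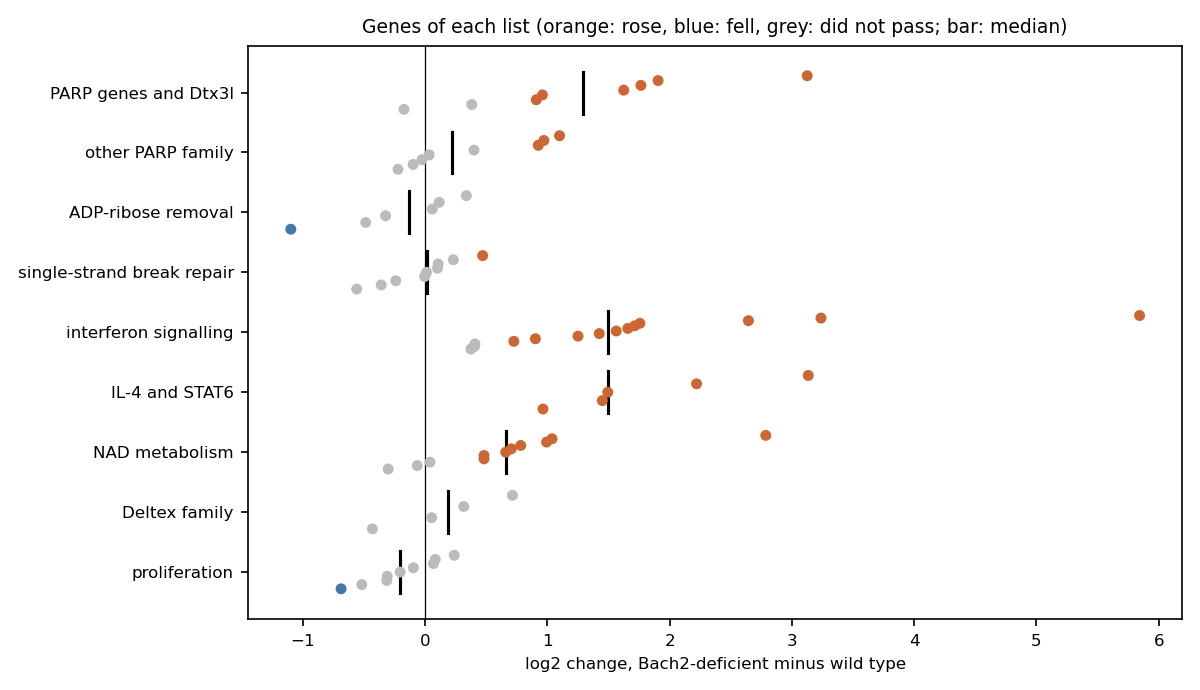
Log2 change (Bach2-deficient minus wild type) of each measured gene by list, with the list median as a black bar; orange genes rose, blue genes fell and grey genes did not pass. The medians of the interferon signalling list and the IL-4 and STAT6 list (1.49 each) lie near that of the PARP genes and Dtx3l (1.29), and that of single-strand break repair lies at 0.01. The median of the IL-4 and STAT6 list is the change of the dim gene Il13, whose size is not exact.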

How the data were processed

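The authors deposited log2 values from RMA (background correction, quantile normalization and probe summary) and Partek, per the submitters' processing notes; versions and order were not given in the sources used here. Values ran from 1.99 to 14.44. They were used as deposited, with array medians between 5.80 and 5.88. Of 45101 probe sets, 64 were controls, 34945 had 1 gene symbol in the platform annotation, 932 had several and 9160 had none; 34741 of the single-symbol ones matched RefSeq, with 0 symbols changed.

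The probe set brightest on average over the 10 arrays stood for its gene. Bach2-deficient minus wild type was fitted by lmFit and eBayes (limma 3.58.1, R 4.3.3, 2-sided) over 10 arrays with genotype as the only factor, by gene and, separately, by probe set. Detection calls were not used here, and precision is limited by the array number. Whether each tumor is a separate animal is not stated, so p-values cover the scatter among these samples, possibly technical. The fit was tested on simulated data with independent genes, which cannot bear on sex, spike controls or cell content in these arrays.

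Members and lists were chosen with earlier results of these data known. All members are named. Of each pathway list the rule names the 2 called genes with the smallest adjusted p, and Ifng; a further gene of the rule is not reported here. For Parp14, Parp9 and Parp1 it names the 3 genes with the most similar deviations. Marker lists covered T cells, macrophages, B cells, melanocytes, fibroblasts (0 of 6 rose, 2 fell), endothelium (1 of 5 rose, 1 fell) and red cells (3 of 3 fell). Alternatives changed the scaling, the dim-gene filter, the moderation, array weights, the probe set rule, a replicate block, an Xist term, a melanocyte covariate and 1 array at a time.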

Additional observations from a re-analysis of the deposited data

Results flagged for a closer look

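In the Bach2-deficient group replicate 1 stood apart from the other 4 arrays on 3 of the 30 sets of 5 values examined (15 probe sets in each of the 2 groups). It read 11.89 for Dtx3l probe set 1435208_at, 10.75 for Dtx3l probe set 1439825_at and 8.82 for Parp8 probe set 1451474_a_at, and its gap to the next array took up 0.75, 0.79 and 0.72 of the group's whole range, where 0.71 is the 95% limit. Chance flags about 1 in 20 such sets, and both Dtx3l probe sets read the same RNA. Without that array Dtx3l changed by 1.92 and Parp8 by 1.77, and both passed.

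Probe set 1452178_at is shared by Parp10 and Plec and lay outside the comparison. It read 6.63, 7.78, 6.20, 7.08 and 7.39 in wild type and 8.50, 9.19, 9.70, 9.11 and 8.85 in the Bach2-deficient tumors, with no overlap. Its change was 2.05 (SE 0.31, limma adjusted p = 0.00192 over all probe sets). The 3 probe sets of Plec alone changed by -0.05, -0.04 and -0.11 and did not pass. Which gene the shared probe set reads was not tested.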

How the results depend on the processing

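Over 19 alternatives the number of PARP genes and Dtx3l that rose stayed at 6 except without wild-type replicate 2 (7) and with the melanocyte covariate (4), and 0 fell. Of their probe sets, 4 rose with that covariate (9 as reported). With it Parp1, on 1435368_a_at, changed by 0.044 in place of -0.17 and Parp1 probe set 1422503_s_at by 0.010. That probe set, at -0.06 as reported, also turned to 0.19 with the Xist term, and to 0.025, 0.011 and 0.0086 without wild-type replicate 1 or 5 or Bach2-deficient replicate 5, with a range of -0.13 to 0.025 over the arrays left out. Parp1 probe set 1443573_at turned to -0.093 with the Xist term and 1422502_at to -0.020 after repeated quantile normalization; none of these passed. The difference between the interferon-responsive and repair means was 1.38 with averaged probe sets and 1.72 to 2.00 with 1 array left out.

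Over all genes, 1030 rose and 387 fell with the Xist term, and 425 and 174 with the covariate. With 1 array left out the falls ran from 1388 (without Bach2-deficient replicate 2) to 2807, and were 1447 without replicate 4. Of the pathway genes, 28 rose and 2 fell as reported; 15 and 1 did with the Xist term, 10 and 0 with the covariate. Falls numbered 5 after repeated quantile normalization, 6 with array weights, 4 with averaged probe sets and 1 to 9 with 1 array left out. The cause was not tested.

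With the replicate block 2842 genes rose and 2110 fell. Of the PARP genes together with Dtx3l 6 rose, and of their probe sets 8 (1445888_x_at of Parp3 did not pass). Lig3 did not pass with the block (limma adjusted p = 0.0546). The SE with the block was lower for Parp8, Parp9, Parp12, Parp14 (0.16 in place of 0.36) and Dtx3l, and not for Parp1, Parp2 or Parp3. Deviations from the group means, over all genes, were correlated between wild-type and Bach2-deficient tumors. Same-numbered tumors gave 0.01 to 0.32 and others -0.21 to 0.18. These values do not settle whether the numbers pair the tumors. The main fit did not take them as pairs. Dim probe sets carry no detection call, which limits the size of changes there.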

Other observations

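Among the protein-coding neighbours of Parp14, Dtx3l and Parp9 on chromosome 16, chosen by position, Kpna1, an importin gene next to Parp9, rose by 0.57 (SE 0.17, limma adjusted p = 0.0328). On the other side Hspbap1 changed by 0.61 (SE 0.30, limma adjusted p = 0.154) and Slc49a4 by 0.23, and beyond Kpna1 lies Wdr5b, which changed by 0.03; these 3 did not pass.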
